A study of Mus musculus with 4 samples.

Results

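Matrix metalloproteinases are zinc-dependent proteases that cut collagens, laminins, fibronectin and other proteins outside the cell. Here 10 genes of this system were followed in mouse skin: 6 metalloproteinases (Mmp2, Mmp3, Mmp9, Mmp10, Mmp13, Mmp14), the 3 tissue inhibitors Timp1, Timp2 and Timp3, and the membrane sheddase Adam17. They were picked by gene symbol out of 56953 genes, and each symbol matched 1 gene. The choice was made with results of the same contrast known, above all the values of Mmp3, Mmp10 and Mmp13, so the fold changes and p-values of these genes describe the data and support nothing further.

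The samples were dorsal skin of wild type mice (C57BL/6J), treated on the skin surface for 3 days. One group of 2 libraries received the solvent DMSO, and the other group of 2 received NEDD8i at 10 µM, a compound for which the labels give no other name and which is called after the ubiquitin-like protein NEDD8. Tissue is described in the labels as full-thickness skin, although the extraction text speaks of cells. The labels give neither ages and sexes nor whether the replicates came from separate mice, so p-values reflect how far these libraries differ from one another, possibly for technical reasons alone. The libraries were read from the 3′ end of transcripts.

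Most metalloproteinases are made as inactive proenzymes, in which a cysteine of the propeptide blocks the catalytic zinc until the propeptide is cut off. TIMP proteins then bind the active site and stop the enzyme. In skin, stromelysins and collagenases are known from wound edges, where keratinocytes and fibroblasts make them, while the membrane-bound protease MMP14 is known for activating MMP2 at the cell surface. ADAM17 belongs to a related family of membrane proteases that release growth factors and cytokines from cell surfaces, and TIMP3 is its natural inhibitor.

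Total counts ran from 5639791 to 8856572 per library, and 52.6% to 61.7% of them fell on 3 ribosomal RNA genes. That left 2287839 to 3654442 counts for all other genes. The basal keratinocyte markers Krt5 and Krt14 had 4363 or more counts in every library, whereas 7 endothelial markers together had 3 to 18 counts and 6 smooth muscle markers 10 to 17, so vessels and muscle of full-thickness skin are barely represented. DMSO replicate 1 stood apart by its hair follicle RNA. There 13 hair shaft and inner root sheath markers held 1.61% of the reads outside ribosomal RNA, against 0.00966%, 0.00856% and 0.104% in DMSO replicate 2 and NEDD8i replicates 1 and 2.

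Mmp3, Mmp10 and Mmp13, the members with low or absent counts with DMSO and high counts with NEDD8i, are neighbours in 1 cluster on chromosome 9. Their promoters are shown because these genes moved together and because each carries a match to the same motif. The windows hold the 250 bases before the annotated start of each gene, from RefSeq on GRCm38.p6, plus strand, at chr9:7445572-7445821 for Mmp3, chr9:7502092-7502341 for Mmp10 and chr9:7272264-7272513 for Mmp13. Capitals mark matches to TGANTCA, the letters that the transcription factor AP-1, a dimer of Fos and Jun family proteins, is known to bind.
Mmp3: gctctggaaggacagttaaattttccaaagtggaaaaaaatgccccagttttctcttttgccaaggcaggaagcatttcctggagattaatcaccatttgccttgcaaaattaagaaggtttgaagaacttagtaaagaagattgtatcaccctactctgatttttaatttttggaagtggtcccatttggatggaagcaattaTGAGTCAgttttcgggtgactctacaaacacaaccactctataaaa
Mmp10: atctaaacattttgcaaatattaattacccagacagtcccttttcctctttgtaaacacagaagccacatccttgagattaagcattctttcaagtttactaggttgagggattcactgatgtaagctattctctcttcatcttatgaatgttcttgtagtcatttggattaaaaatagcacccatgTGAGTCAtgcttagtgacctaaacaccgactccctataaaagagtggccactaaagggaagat
Mmp13: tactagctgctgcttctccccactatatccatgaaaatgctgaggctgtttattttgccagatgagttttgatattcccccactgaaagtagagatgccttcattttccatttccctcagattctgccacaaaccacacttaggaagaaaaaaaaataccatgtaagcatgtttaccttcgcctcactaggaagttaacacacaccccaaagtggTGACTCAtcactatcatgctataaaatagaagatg
The motif was searched on both strands, on which it reads the same, and in these windows it overlaps no match to the other motif searched, a TATA box. It began 46 bases before the start in Mmp3 and 63 bases before it in Mmp10, both times as TGAGTCA, and 35 bases before it in Mmp13, as TGACTCA. The core of a TATA box, read as TATAAA, lay between the AP-1 match and the start in all 3 windows, beginning 7, 29 and 16 bases before the start of Mmp3, Mmp10 and Mmp13. Of 32536 mouse promoter windows of this length, 6.73% held TGANTCA, 12.3% held TATAAA and 1.19% held both. The other 5 members with a window in the RefSeq table (Mmp14, Timp1, Timp2, Timp3 and Adam17) held neither set of letters in theirs. Both sets were also present in windows of Mmp1a, Mmp1b, Mmp7 and Mmp20. These relatives in the same cluster had 0 counts or, for Mmp1a, 1 count over all libraries. Mmp12, a cluster gene with counts only with NEDD8i, has 2 windows and held no TATAAA in either. TGANTCA was absent from its window 1, chr9:7344147-7344396, and present in its window 2, chr9:7347124-7347373. A match is a description of the sequence and shows no binding.

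Mmp3 encodes stromelysin 1, which cuts fibronectin, laminin and proteoglycans and activates other proMMPs. It lies on the plus strand of chromosome 9, 7445822 to 7455975 (ENSMUSG00000043613.9). Coordinates of genes are those of the deposited table, taken to be GRCm39, as set out in the methods. Mmp3 had 7 and 15 counts in DMSO replicates 1 and 2, against 495 and 345 counts in the NEDD8i pair. Scaled to library size (CPM) these were 0.997 and 2.71 with DMSO against 61.2 and 41.3 CPM with NEDD8i. Both NEDD8i libraries therefore lay far above both DMSO libraries. The means were 1.85 ± 1.21 CPM with DMSO and 51.3 ± 14.1 CPM with NEDD8i (SD, n = 2 each), a ratio of 27.7. In a quasi-likelihood test in edgeR, Benjamini-Hochberg adjusted over 11388 tested genes, the log2 fold change was 4.82 (SE 0.50, adjusted p = 0.00574). Without DMSO replicate 2 the log2 fold change was 5.68, and without DMSO replicate 1 it was 4.22.

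Mmp10 encodes stromelysin 2, a close relative of MMP3 that keratinocytes at the front of a healing wound are known to make. Its gene (ENSMUSG00000047562.4, chromosome 9, 7502353 to 7510241, plus strand) starts 56.5 kb beyond Mmp3. It had 0 and 1 counts in the DMSO libraries and 139 and 119 in the NEDD8i libraries, or 17.2 and 14.2 CPM. With a single count in the DMSO group, the ratio was 197 with a 95% counting interval of 35.1 to 7819, which covers counting error only. The edgeR adjusted p was 0.00574, and the call was lost with limma-voom (adjusted p = 0.0809). Size is uncertain here because 1 read sets the DMSO level, while both NEDD8i libraries were close to each other.

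Mmp13 encodes collagenase 3, the main interstitial collagenase of rodents, and starts 173 kb before Mmp3 (ENSMUSG00000050578.11, chromosome 9, 7272514 to 7283331, plus strand). No read was counted in either DMSO library, which allows up to 0.427 and 0.541 CPM in replicates 1 and 2, taking 3 counts per library as the limit. NEDD8i replicates 1 and 2 had 49 and 26 counts, or 6.06 and 3.11 CPM. Setting the DMSO group as a whole to a floor of 3 counts, Mmp13 came out 19.1-fold higher with NEDD8i, a value that leaves out counting error in the NEDD8i reads. Mmp13 passed narrowly in edgeR's quasi-likelihood test (adjusted p = 0.0458). Without NEDD8i replicate 1 it no longer passed (adjusted p = 0.429), and it was also lost with limma-voom (0.113), without the robust option (0.0826), with library sizes without TMM factors (0.0600) and without ribosomal RNA genes (0.0516).

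In all, 8 of the 10 members had enough counts to be tested, and 3 of these passed an adjusted p of 0.05, all higher with NEDD8i. Over all tested genes 0.782% passed, made up of 0.667% higher and 0.114% lower. These 3 would not have entered the test on their DMSO counts alone, so the filter favoured a difference in this direction. Mmp2 and Timp1 had too few counts for the test. The 2 groups did not overlap for 5 of the 8 tested members, as for 47.9% of all tested genes.

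**Figure D1:**
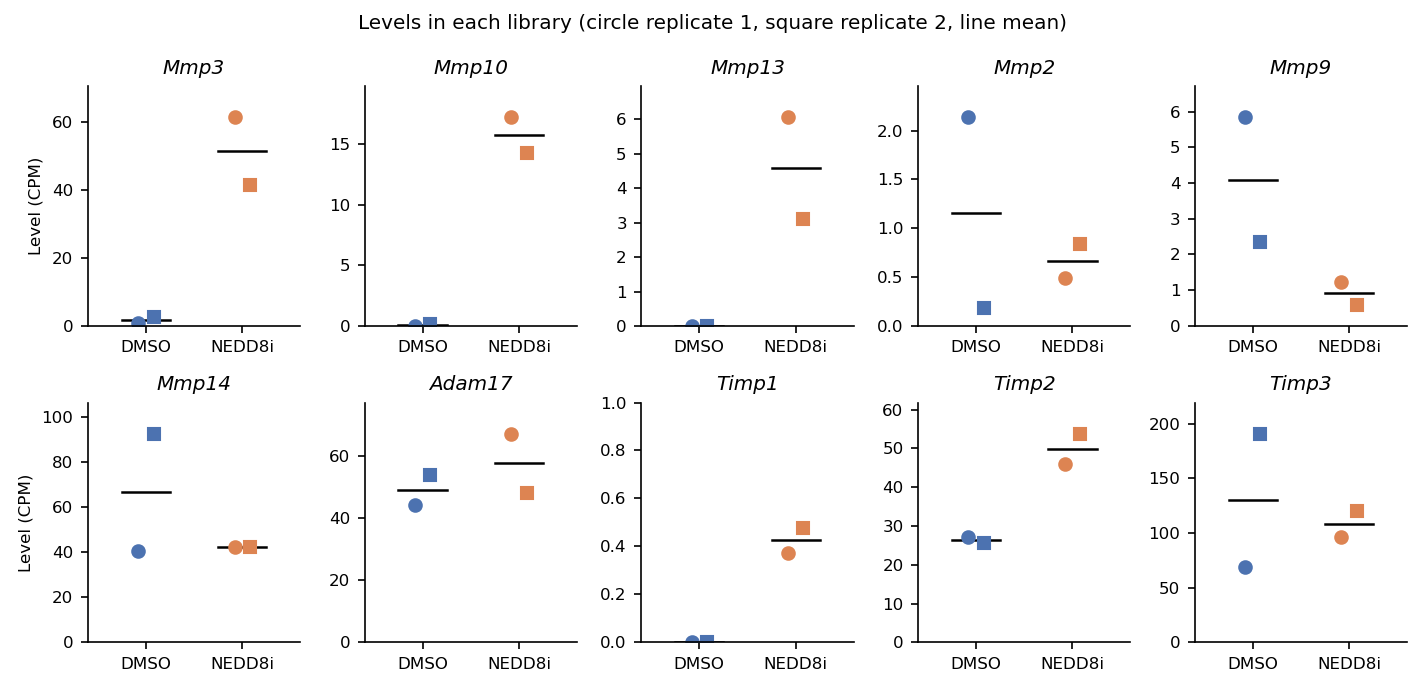
Level of each of the 10 genes in CPM (counts scaled to library size with TMM factors, linear axes that start at 0) in the 2 DMSO and 2 NEDD8i libraries, with the group mean as a line. Each gene has an axis scaled to its own values. Mmp3, Mmp10 and Mmp13 are near or at 0 in both DMSO libraries. In absolute CPM, though not relative to level, Mmp14 and Timp3 are spread most between the DMSO libraries.

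The gelatinases, which cut basement membrane collagen and denatured collagen, had few reads. Mmp9 encodes gelatinase B, a product of migrating keratinocytes and of leukocytes (ENSMUSG00000017737.3, chromosome 2, 164790139 to 164797770, plus strand). It had 41 and 13 counts in DMSO replicates 1 and 2 against 10 and 5 in the NEDD8i pair, or 5.84, 2.35, 1.24 and 0.598 CPM. Both NEDD8i libraries were below both DMSO libraries, as they were for 22.9% of all tested genes, and the gene had passed the filter through its DMSO counts. The log2 fold change of -2.15 (SE 0.73) did not pass (adjusted p = 0.195 in edgeR). It passed in 1 fit, without DMSO replicate 2 (log2 fold change -2.63, adjusted p = 0.0127), where the lone DMSO library is the one rich in hair follicle RNA. Whether that RNA has a part in the value was not tested.

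Mmp2 encodes gelatinase A, typical of fibroblasts (ENSMUSG00000031740.9, chromosome 8, 93553919 to 93580048, plus strand). Its counts were 15 and 1 with DMSO and 4 and 7 with NEDD8i, so the groups overlapped. Mmp2 shares 859 exon bases with Gm45472 on the opposite strand, which had 0 to 3 counts, so some reads may have been dropped. All 10 dermal fibroblast markers had reads. Their summed counts were 404 and 42 with DMSO and 404 and 905 with NEDD8i, lowest in DMSO replicate 2, where Mmp2 was lowest too. Among them Col1a1, Col1a2 and Col3a1 were highest in NEDD8i replicate 2, and Dpt rose (log2 fold change 3.29, SE 0.58, adjusted p = 0.0446 in edgeR). Dcn, the proteoglycan decorin, held most of the DMSO reads, with 345 and 9 counts with DMSO and 135 and 173 with NEDD8i. The other 9 markers together had 59 and 33 counts with DMSO and 269 and 732 with NEDD8i, a sum formed after the values were seen, and their groups did not overlap. Of the 7 markers tested, 6 had a positive log2 fold change, with a median of 3.10 and 6 at an unadjusted p under 0.05, beside 16.5% of all tested genes at such a p. The part of these markers in the values of Mmp3, Mmp10 and Mmp13 was not tested. In bulk skin, fewer cells of a type and less RNA per cell cannot be told apart.

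Mmp14 encodes the membrane-type protease MT1-MMP (ENSMUSG00000000957.12, chromosome 14, 54669069 to 54682821, plus strand). Counts were 285 and 513 with DMSO and 341 and 352 with NEDD8i, which gave 40.6, 92.6, 42.2 and 42.1 CPM. The NEDD8i libraries were nearly equal and lay inside the span of the DMSO libraries. The log2 fold change was -0.66 (SE 0.39, adjusted p = 0.452 in edgeR). Its sign rested on DMSO replicate 2. Without that library it was 0.07, and without DMSO replicate 1 it was -1.15 and passed (adjusted p = 0.00544).

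Adam17 encodes the sheddase that releases TNF and EGF receptor ligands (ENSMUSG00000052593.17, chromosome 12, 21373510 to 21423633, minus strand). It had 311 and 300 counts with DMSO and 544 and 404 with NEDD8i, or 44.3, 54.1, 67.3 and 48.4 CPM. The groups overlapped, with a log2 fold change of 0.23 (SE 0.30, adjusted p = 0.760 in edgeR) that went to -0.01 without NEDD8i replicate 1. Its exons share 311 bases with those of Iah1 on the opposite strand, which had 13 to 46 counts, so some reads of the pair may be assigned to either or dropped, as no source used here states the strand setting.

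Of the 3 inhibitors, Timp2 and Timp3 were tested and neither passed. Timp1, which is induced by cytokines and growth factors in many tissues, was almost absent, with 0 counts in both DMSO libraries and 3 and 4 with NEDD8i (ENSMUSG00000001131.12, chromosome X, 20736405 to 20740974, plus strand). In CPM these were 0.371 and 0.479. With the DMSO group set to the same floor of 3 counts, Timp1 came out 1.78-fold higher with NEDD8i. That value rests on 7 reads in all and leaves out counting error in them, and Timp1 had too few counts for the test.

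Timp2, which takes part in proMMP2 activation by MMP14 besides inhibiting MMPs, lies on chromosome 11 (ENSMUSG00000017466.11, 118191887 to 118246332, minus strand). It had 190 and 142 counts with DMSO and 371 and 449 with NEDD8i, or 27.1 and 25.6 against 45.9 and 53.7 CPM. Timp2 shares 332 exon bases with Cep295nl on the same strand, which had 0 to 1 counts, so some reads may have been dropped. Both NEDD8i libraries were above both DMSO libraries, which was so for 25% of tested genes. Means were 26.3 ± 1.02 and 49.8 ± 5.54 CPM (SD, n = 2 each), a ratio of 1.89. The log2 fold change of 0.92 (SE 0.28) did not pass (adjusted p = 0.159 in edgeR), and it stayed between 0.70 and 1.05 in every alternative run.

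Timp3, the inhibitor that stays bound to the matrix, had 484 and 1057 counts with DMSO and 782 and 1001 with NEDD8i (ENSMUSG00000020044.14, chromosome 10, 86136236 to 86185370, plus strand). In CPM these were 68.9, 190.7, 96.8 and 119.8, so that the DMSO libraries enclosed the NEDD8i libraries. The log2 fold change was -0.26 (SE 0.45, adjusted p = 0.830 in edgeR), and it turned to 0.67 without DMSO replicate 2. That library had the highest Timp3 and Mmp14 levels and also the largest share of basal keratinocyte marker reads, 1.39% of the reads outside ribosomal RNA against 0.751% in DMSO replicate 1 and 1.13% and 1.09% with NEDD8i. The part of this share in the 2 values was not tested.

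**Figure D2:**
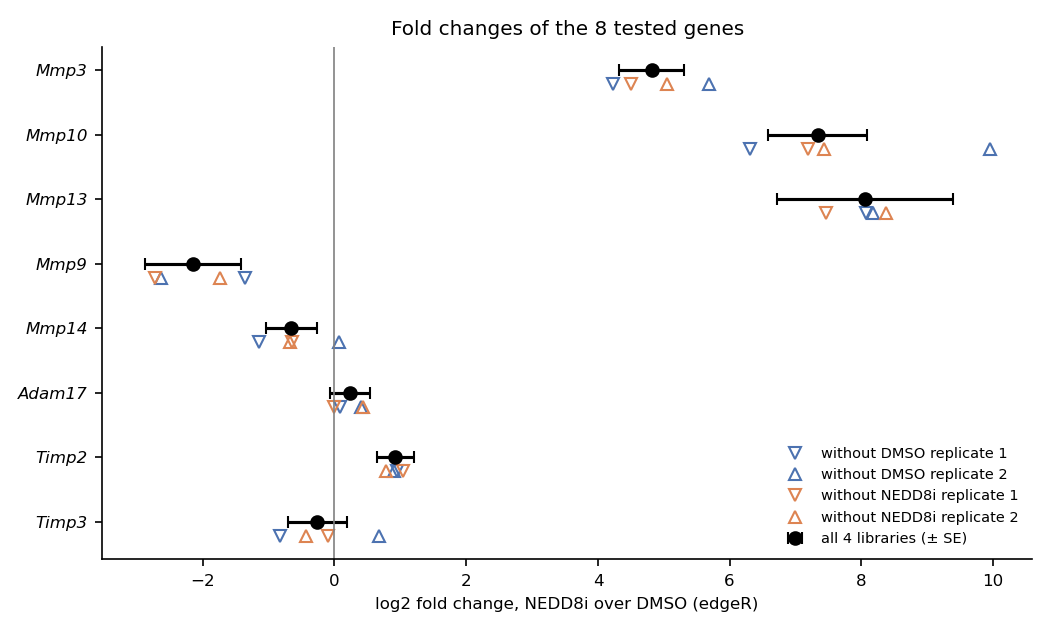
Log2 fold change of NEDD8i over DMSO for the 8 tested genes in edgeR, with an approximate standard error (defined in the methods) as a bar for the fit of all 4 libraries and open triangles for the fits that leave out 1 library. Mmp3, Mmp10 and Mmp13 stay far to the right in every fit, though the values of Mmp10 and Mmp13 depend on the prior count because DMSO had 1 and 0 reads, while Mmp14, Timp3 and Adam17 change sign in 1 fit each.

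Reads of the cluster proteases and of the inhibitors can be set side by side in each library. Mmp3, Mmp10 and Mmp13 together had 7 and 16 counts with DMSO and 683 and 490 with NEDD8i, while Timp1, Timp2 and Timp3 together had 674 and 1199 with DMSO and 1156 and 1454 with NEDD8i. That makes 1.04 and 1.33 protease reads per 100 inhibitor reads in the DMSO libraries and 59.1 and 33.7 in the NEDD8i libraries. Mmp3 supplied 72.5% and 70.4% of these protease reads in the NEDD8i libraries. Summed inhibitor levels, 96.0 and 216.4 CPM with DMSO and 143.0 and 174.0 CPM with NEDD8i, overlapped. The grouping follows the pattern already described and carries no test, and reads of transcripts say nothing of protein or of enzyme activity.

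**Figure D3:**
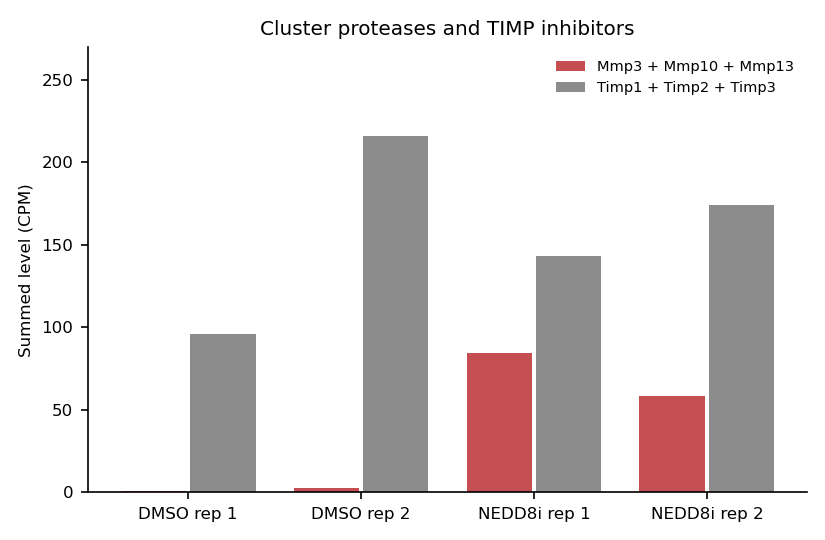
Summed level in CPM of the proteases Mmp3, Mmp10 and Mmp13 (red) and of the inhibitors Timp1, Timp2 and Timp3 (grey) in each library, 1 bar per library and sum, on an axis that starts at 0. The protease bars are 0.997 and 2.89 CPM with DMSO and 84.5 and 58.7 CPM with NEDD8i, while the inhibitor bars of the groups overlap.

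Position was not part of how the genes were chosen, but the window below was drawn around Mmp3, Mmp10 and Mmp13. That it holds these 3 calls was therefore fixed beforehand. From 500 kb before to 500 kb after the span of Mmp3, Mmp10 and Mmp13, the table listed 26 genes, of which 10 were metalloproteinases and 11 were tested. The 3 that passed were Mmp3, Mmp10 and Mmp13, and none of the 7 other tested genes outside the metalloproteinase family passed (edgeR, 1 at an unadjusted p under 0.05, as 16.5% of all tested genes were, and 0 in DESeq2). Within the family, Mmp12, the macrophage elastase, lies 101 kb before Mmp3 and showed a like pattern, with 0 and 0 counts with DMSO and 26 and 19 with NEDD8i. It came out 11.5-fold higher with the same floor, but missed the threshold (adjusted p = 0.0703 in edgeR). Mmp12 missed it too in limma-voom (adjusted p = 0.115) and in edgeR without the robust option (0.0995). In edgeR without a filter on low counts it passed (adjusted p = 0.00158), in a fit with 703 calls over all genes. Mmp12 shares 157 exon bases with Mmp1b on the other strand, and Mmp1b had 0 counts. Monocyte and macrophage markers, 10 genes all with some reads, summed to 187 and 102 counts with DMSO and 299 and 284 with NEDD8i, and their part in the Mmp12 value was not tested.

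The rest of the family in the cluster was silent or nearly so in all 4 libraries. Mmp1b, Mmp7 and Mmp20 had 0 counts, Mmp1a had 1 in NEDD8i replicate 1, and Mmp27 had 2 in NEDD8i replicate 2. Mmp8, the neutrophil collagenase, had 1 and 0 counts with DMSO and 3 and 1 with NEDD8i. Of the 10 neutrophil markers, which include Mmp8, the genes Ly6g, Camp, Ltf, Ngp, Elane and Mpo were at 0 in all libraries. The chemokine receptor gene Cxcr2 held most reads of the list, with 11 and 33 counts with DMSO and 75 and 44 with NEDD8i (log2 fold change 0.97, adjusted p = 0.501 in edgeR). Csf3r had 1 count in DMSO replicate 2 and 5 in NEDD8i replicate 1, and Retnlg had 2 in NEDD8i replicate 1. The list summed to 12 and 34 counts with DMSO and 85 and 45 with NEDD8i, and its part in the metalloproteinase values was not tested. TGANTCA was found in windows of 8 of the 10 family members of the cluster, including all 3 that had 0 counts. A gene was counted if any of its windows held the letters, which for Mmp12 was window 2 only. Holding these letters therefore did not separate the genes with reads from those without.

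Genes on either side of the family did not share the pattern. Dcun1d5, which encodes a factor that promotes neddylation, had 104 and 143 counts with DMSO and 238 and 276 with NEDD8i (log2 fold change 0.62, adjusted p = 0.420 in edgeR). Its divergent neighbour Dync2h1, a dynein heavy chain of cilia, stood at -1.12 (adjusted p = 0.160). On the far side, log2 fold changes were -0.44 for Tmem123, -0.65 for the apoptosis inhibitor Birc2, -0.17 for its relative Birc3 and 0.41 for the Hippo pathway coactivator Yap1, none past the threshold. Calls in the window moved when 1 DMSO library was left out, as calls over all genes did. Without DMSO replicate 1 it also held lower calls, none of them Mmp3, Mmp10, Mmp13 or Mmp12. Without DMSO replicate 2 all its calls were higher.

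**Figure D4:**
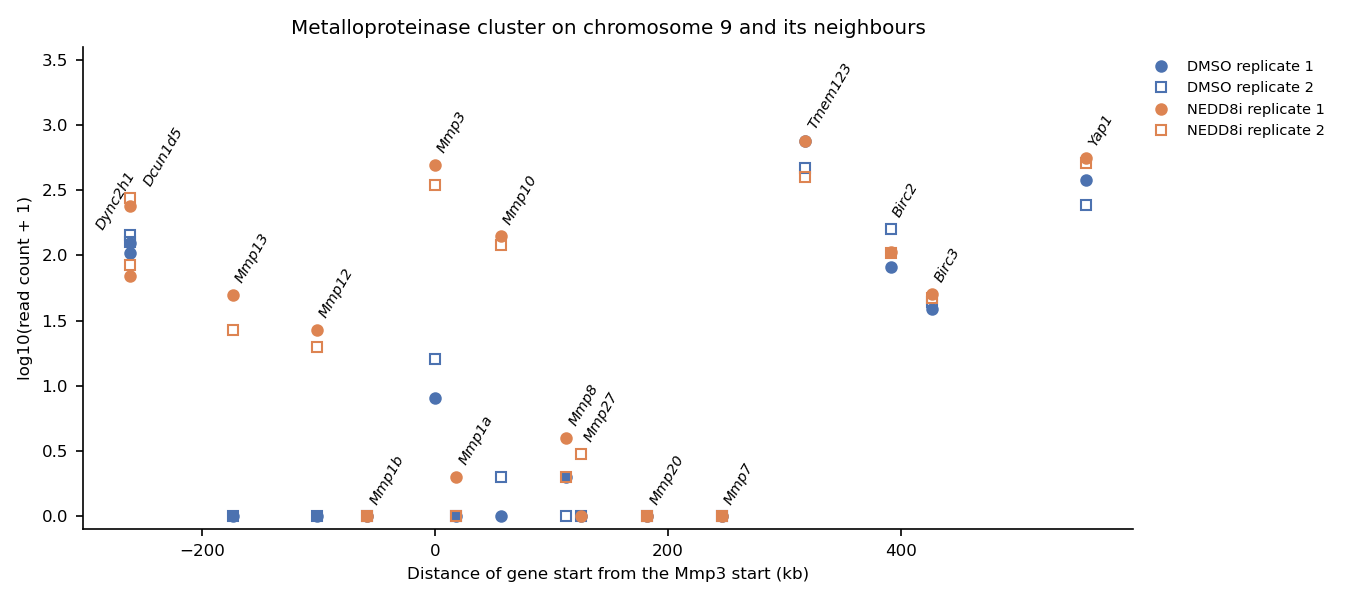
Read count, as log10 of the count plus 1, of the 10 metalloproteinase genes of the cluster and of flanking genes with 100 or more counts, by distance of the gene start from that of Mmp3 in kb, with 1 marker per library. Mmp13, Mmp12, Mmp3 and Mmp10 are separated by group, whereas counts of the flanking genes differ far less between the groups.

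The profiles nearest to those of the 3 called proteases were sought over the 4 libraries. Nearness was the Euclidean distance between log2 CPM values centred on each gene's mean, over 8003 genes for Mmp3 and 8004 for Mmp10 and Mmp13. For Mmp3 these were the cornified envelope gene Sprr2d (distance 0.73), the alarmin cytokine Il33 (0.77) and Sprr2h (0.79). For Mmp10 they were Mmp3 itself (0.74), Sprr2h (0.75) and Sprr2d (0.75). For Mmp13 they were Il33 (0.54), the serpin Serpinb2 (0.62) and the wound keratin Krt6a (0.73). Serpinb2, for example, had 216 and 268 counts with DMSO and 3909 and 3420 with NEDD8i. With 4 libraries in 2 groups, any gene with a difference of like size would be near, and the distance says nothing of shared control.

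Among 19 further metalloproteinases and inhibitors, only Mmp12 and Mmp15 had enough counts for the test and 0 passed (2 at an unadjusted p under 0.05, beside 16.5% of all tested genes). In limma-voom 0 passed too. DESeq2 also gave 0, but it returned no adjusted p for Mmp12, so that count leaves Mmp12 out. Mmp15, another membrane-type protease, had 29 and 35 counts with DMSO and 18 and 9 with NEDD8i (log2 fold change -1.65, SE 0.60, adjusted p = 0.218 in edgeR). Reck, a membrane-anchored inhibitor, had 0 and 0 against 1 and 4 counts, and Timp4 had 2 counts in all.

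ADAM and ADAMTS proteases and the partners of ADAM17 gave 0 of 9 tested genes past the threshold in edgeR (2 at an unadjusted p under 0.05, beside 16.5% of all tested genes, 1 in DESeq2 and 0 in limma-voom). Their median log2 fold change was 0.15, against -0.0032 over all tested genes, and 11 of the 20 had too few counts. Adamts1, which cuts proteoglycans, had 779 and 70 counts with DMSO and 293 and 536 with NEDD8i, highest in the library rich in hair follicle RNA. Adam15 had 235 and 297 against 456 and 502 counts (log2 fold change 0.42, adjusted p = 0.562 in edgeR). Adam8, named after its values were seen, had 4 and 15 counts with DMSO and 132 and 116 with NEDD8i, a log2 fold change of 3.25 (SE 0.61) that just missed (adjusted p = 0.0548 in edgeR). Rhbdf1 and Rhbdf2, which encode the iRhom proteins that carry ADAM17 to the cell surface, and Frmd8, which stabilises them, stood at 0.99, -0.07 and 0.15, none past the threshold.

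Of the genes that activate or control metalloproteinases, 2 of 19 tested rose and 0 fell, beside the background of 0.782%, with a median log2 fold change of 0.38. Furin encodes the convertase that cuts the propeptides of MMP14 and ADAM17 inside the cell. It had 183 and 165 counts with DMSO and 806 and 818 with NEDD8i, or 26.1 and 29.8 against 99.7 and 97.9 CPM. The libraries of each group were close together and the groups far apart (ratio of means 3.54, log2 fold change 1.82, SE 0.28, adjusted p = 0.0276 in edgeR). Furin no longer passed without NEDD8i replicate 1 (adjusted p = 0.177), without NEDD8i replicate 2 (0.134), with limma-voom (0.0585), without the robust option (0.0561) or with library sizes without TMM factors (0.0515). The other was Serpinb2, an inhibitor of plasminogen activators (log2 fold change 3.50, SE 0.37, adjusted p = 0.00574 in edgeR). Plau, the urokinase that makes plasmin and so activates several proMMPs, had 58 and 63 counts with DMSO and 240 and 421 with NEDD8i and just missed (log2 fold change 2.03, SE 0.37, adjusted p = 0.0519 in edgeR). It too was named after its values were seen.

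ADAM17 substrates held 2 risers and 0 fallers among 17 tested genes, beside 0.667% higher and 0.114% lower over all tested genes, with a median log2 fold change of 0.62. Both are EGF receptor ligands. Tgfa had 50 and 24 counts with DMSO and 282 and 324 with NEDD8i (log2 fold change 2.67, SE 0.36, adjusted p = 0.0162 in edgeR), and passed except with library sizes without TMM factors (adjusted p = 0.0515). Epgn, epigen, had 27 and 24 against 370 and 340 counts (log2 fold change 3.40, SE 0.33, adjusted p = 0.00574 in edgeR). So the transcripts of these ligands rose in libraries in which those of Adam17 and of its inhibitor Timp3 overlapped between the groups. Areg and Hbegf, 2 other ligands named after their values were seen, stood at 1.70 and 1.18 and did not pass (adjusted p = 0.0866 and 0.170 in edgeR). The ligand gene Ereg, also of this list, did not rise. It had 130 and 88 counts with DMSO and 56 and 189 with NEDD8i, so its groups overlapped (log2 fold change -0.22, adjusted p = 0.877 in edgeR).

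Matrix and basement membrane substrates gave 0 of 22 tested genes past the threshold in edgeR (7 at an unadjusted p under 0.05, beside 16.5% of all tested genes, 1 in DESeq2 and 0 in limma-voom), with 11 positive and 11 negative log2 fold changes and a median of 0.08. The cell adhesion protein gene Cdh1, E-cadherin, was at 492.0 ± 26.7 CPM with DMSO and 627.8 ± 38.8 CPM with NEDD8i (SD, n = 2 each, log2 fold change 0.35, adjusted p = 0.627 in edgeR). Col17a1, the hemidesmosome collagen of basal keratinocytes, was at 340.0 ± 36.2 and 331.1 ± 94.3 CPM (log2 fold change -0.04, adjusted p = 0.969 in edgeR). Counts in this list moved with single libraries. Without DMSO replicate 1, and likewise without DMSO replicate 2, the list had calls in both directions, as all tested genes did in those fits.

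Regulators of metalloproteinase transcription had 1 riser and 0 fallers among 23 tested genes, beside 0.667% higher and 0.114% lower over all tested genes, with a median log2 fold change of 0.25. The riser was Fosl1, which encodes the AP-1 subunit FRA-1. It had 57 and 27 counts with DMSO and 335 and 338 with NEDD8i (log2 fold change 2.64, SE 0.36, adjusted p = 0.0162 in edgeR), and passed except with library sizes without TMM factors (adjusted p = 0.0515). The other Fos and Jun family genes of the list, given here after their values were seen, overlapped between the groups. For example, Fos had 4608 and 2400 counts with DMSO and 2610 and 5274 with NEDD8i, and Jun had 5629 and 3202 against 3250 and 7001. Atf3, also of this list, was at 528 and 619 CPM with DMSO and 281 and 516 CPM with NEDD8i. Its groups did not overlap, and it did not pass (log2 fold change -0.53, adjusted p = 0.532 in edgeR). The cytokine gene Il1b, a known inducer of Mmp3, had 12 and 9 counts with DMSO and 137 and 17 with NEDD8i, so that 1 library held most of its reads.

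**Figure D5:**
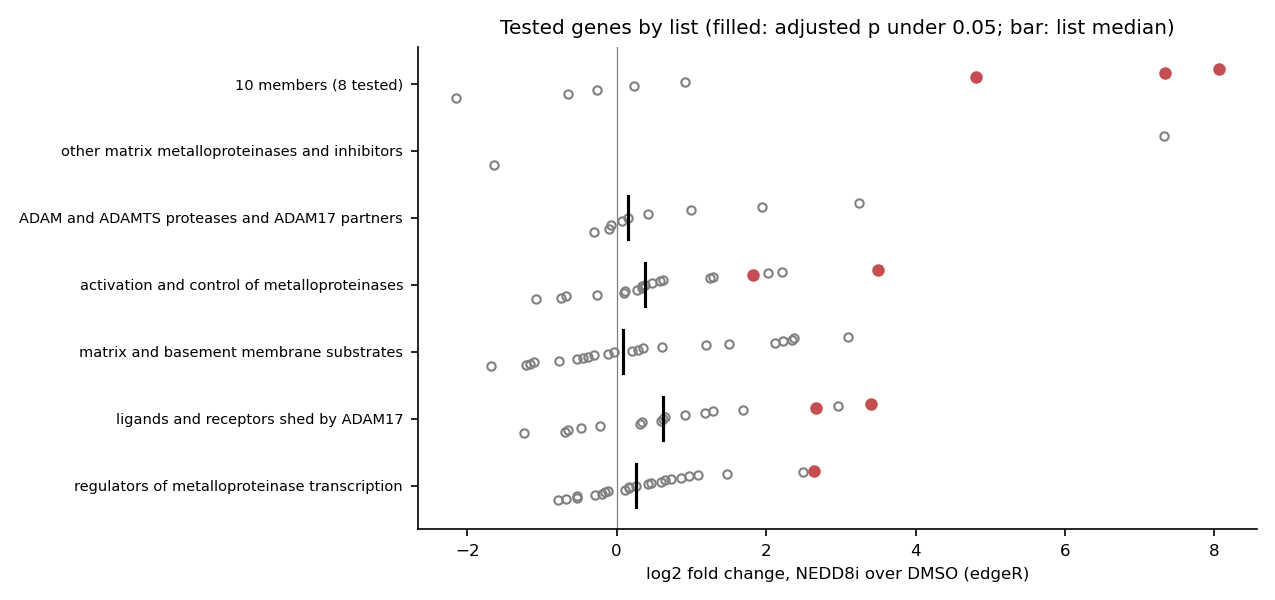
Log2 fold change of NEDD8i over DMSO in edgeR for every tested gene of the 10 members and of 6 lists around them, 1 point per gene, filled where the adjusted p was under 0.05, with a bar at the median of each larger list. Filled points lie to the right of 0 in every row that has any.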

How the data were processed

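Per the labels' protocols, 3′ end libraries (QuantSeq FWD) were made from the RNA of 4 skin samples. The authors deposited raw read counts per gene in 1 table, with exon coordinates and summed exon length. The submitters' processing notes name STAR, featureCounts and DESeq2, without versions, and both GRCm38 and GRCm39. Gene starts equalled those of GENCODE M21 (GRCm38) in 2.7% of 52029 genes matched by identifier, and GRCm39 is therefore assumed. No source used here states the strand setting or the treatment of multi-mapped reads. All 4 value columns matched a sample by name, 0 were unused, and no pair of libraries was within sampling noise (chi-square divided by its degrees of freedom at least 24.1).

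Counts were tested in R 4.3.3 with edgeR 4.0.16 (TMM factors 0.913 to 1.18, filterByExpr with minimum count 10 and minimum total 15, robust quasi-likelihood F test, group as the only term, Benjamini-Hochberg over 11388 genes, threshold 0.05). CPM used TMM-scaled library sizes, and log2 CPM a prior count of 2. The SE given with edgeR values is approximate. It was derived from the test, as the absolute log2 fold change divided by the square root of its F statistic. Alternatives were DESeq2 1.42.0, limma-voom (limma 3.58.1), RLE factors, no TMM, no robust option, no filter, a filter of 10 counts and 1 CPM in 2 libraries, no ribosomal RNA genes, a replicate block and each library left out. The steps were tested on simulated data.

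Members, 6 pathway and 7 cell type lists, tests and the motifs searched were chosen with earlier results of these data known. Named genes were the members, up to 4 called genes of each pathway list or else its 2 with most counts, the 3 nearest profiles to each called member (mean log2 CPM at least 2, without predicted genes), and on chromosome 9 the Mmp genes and those with 100 or more counts.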

Additional observations from a re-analysis of the deposited data

How the results depend on the processing

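With 2 libraries a group, calls depended on single libraries and on the test. The 89 calls over all genes became 47 with library sizes without TMM, 392 in DESeq2, 27 in limma-voom, 48 without the robust option and 703 with no filter, and ran from 44 to 1358 when 1 library was left out, fits in which a lone library is assumed to vary like the other group. Library sizes without TMM moved the median log2 fold change of all genes to -0.22. The 3 member calls became 1 in limma-voom and ran from 2 to 4 without 1 library. The chromosome 9 window, with 3 calls, had 1 in limma-voom and 2 to 6 without 1 library.

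Replicate numbers are shared by the groups, but no label says that they pair the samples, and deviations of same-numbered libraries correlated at -0.13. The replicate block gave 289 calls over all genes and 3 among the members, and the crossed pairing, added after seeing the data, 493 and 3. Called genes of the lists with the block were 1 for ADAM and ADAMTS, 4 for activation and 1 for matrix substrates.

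List calls under other settings were as follows. Activation and control had 1 with library sizes without TMM, in limma-voom and without the robust option, and 4 in DESeq2 and with no filter. ADAM17 substrates had 1 without TMM, 4 in DESeq2 and 7 with no filter. Regulators had 0 without TMM and 4 with no filter. ADAM and ADAMTS genes had 1 in DESeq2 and 2 with no filter, matrix substrates 1 and 7, and other metalloproteinases 1 with no filter. Without 1 library the ranges were 0 to 1 for other metalloproteinases, 0 to 4 for ADAM and ADAMTS, 1 to 7 for activation, 0 to 8 for matrix, 2 to 6 for substrates of ADAM17 and 1 to 6 for regulators. Signs reversed for Mmp14 and Timp3 without DMSO replicate 2 and for Adam17 without NEDD8i replicate 1. Over the fits without 1 library the log2 fold changes ran from -1.15 to 0.074 for Mmp14, from -0.83 to 0.67 for Timp3 and from -0.0089 to 0.44 for Adam17. The cause of these changes was not tested. Depth limits Timp1, Mmp2 and the low DMSO counts of Mmp10 and Mmp13.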
